A study of Mus musculus with 12 samples.

Results

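This account describes liver with an intact Pml gene 6 h after an overdose of acetaminophen (APAP), set against untreated liver of the same genotype. Its members are the 2 arrays titled as Pml wt at 6 h after APAP and the 2 titled as untreated Pml wt, 4 of the 12 arrays of the study. They were compared across every probe set that carried exactly 1 gene symbol and had a mean log2 intensity of at least 5 over the 12 arrays. Of the 35556 probe sets, 19236 met that rule. They stood for 17052 genes, and each gene is given by its brightest probe set.

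The study hybridised liver RNA from mice with Pml (wt) and mice lacking it (KO) to Affymetrix Mouse Gene 1.1 ST arrays, with 2 arrays in each of 6 groups. All groups were female BALB/cByJ mice aged 2.5 months. The wt 6 h and wt 2 h groups received 300 mg/kg APAP by intraperitoneal injection in warmed PBS, and the untreated wt group received no APAP. The KO groups used near the end were untreated KO mice and KO mice killed 6 h after the same dose. Values of KO mice 2 h after that dose are given for a few genes. Whether untreated mice were given the vehicle, how the KO allele was made and whether the samples of a group came from separate animals are not given in the sources used here. P-values therefore measure the spread between these samples, which may be technical.

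Hepatocytes near the central vein oxidise APAP to a reactive quinone that consumes glutathione and then binds proteins, many of them mitochondrial. Oxidants from the injured mitochondria activate the JNK pathway within the hepatocyte. Dying hepatocytes release signals that draw neutrophils and monocytes into the tissue, while surviving cells induce chaperones, antioxidant enzymes and growth signals. The PML protein builds PML nuclear bodies, structures that gather proteins of the stress response.

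Pml itself read 8.18 and 8.46 in the untreated wt arrays, 7.82 and 7.92 at 2 h, and 7.87 and 7.88 at 6 h, all in log2 intensity. The 6 h arrays lay below both untreated arrays, but the difference of -0.44 ± 0.24 was not called (adjusted p = 0.168, limma). Here and below, ± is the standard error of the fit with 2 arrays in each group, and a gene is called at a Benjamini-Hochberg adjusted p under 0.05 over all 19236 probe sets. All 18 hepatocyte markers measured, of which none rose and 2 fell at 6 h, stood at a log2 intensity of 11.39 or more in each wt array, among them Alb and Apoa1, whose differences at 6 h of -0.07 and 0.02 were not called. Probe sets are not independent of each other, and across them arrays of a group correlated at 0.9863 to 0.9939 and arrays of different groups at 0.9242 to 0.9928. The 2 wt 6 h arrays lay together on the first principal component, at 46.4 and 44.5, against -38.1 and -46.6 for the untreated wt arrays. On the second component, with 23.4% of the variance, they lay apart at -3.3 and 12.4, against 11.6 and 8.2 for the untreated wt arrays.

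The promoters below belong to 8 genes that rose at 6 h. They were chosen among named or listed genes that rose and held a motif, so a motif in them is not a result. The RefSeq table for GRCm38.p6 held a promoter for 13408 of the 17052 tested genes, 16671 promoters in all. Both strands of the 250 bases before each start were searched for 6 motifs. These were the heat shock element core GAANNTTC, the antioxidant element TGACNNNGC, the AP-1 site TGANTCA, the cyclic AMP response element (CRE) TGACGTCA, and GGGACTTTC and GGAATTTCC for NF-kB. An antioxidant element and an AP-1 site can overlap. Each line gives the 160 bases before the start, 5′ to 3′ on the gene's own strand, with the motif in capitals. A match describes the letters and is not a bound site.

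Hspb1, a small heat shock protein, and Dnaja4, an HSP40 co-chaperone, are shown for the heat shock element core, with matches beginning 117 and 97 bases before the start of Hspb1 (chr5:135887759-135887918, plus strand) and 90 and 52 bases before that of Dnaja4 (chr9:54699399-54699558, plus strand).
Hspb1: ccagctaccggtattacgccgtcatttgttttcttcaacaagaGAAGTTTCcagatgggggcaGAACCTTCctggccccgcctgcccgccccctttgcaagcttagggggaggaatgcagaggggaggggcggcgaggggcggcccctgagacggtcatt
Dnaja4: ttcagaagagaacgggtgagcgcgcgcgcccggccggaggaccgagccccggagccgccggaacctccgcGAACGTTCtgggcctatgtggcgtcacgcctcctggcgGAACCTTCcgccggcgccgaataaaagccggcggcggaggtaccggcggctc
Dusp8, a phosphatase of JNK and p38, and Ppp1r15a, which directs phosphatase to eIF2 alpha, are shown for the CRE, at 107 and 63 bases before the start of Dusp8 (chr7:142095285-142095444, minus strand) and 12 bases before that of Ppp1r15a (chr7:45526269-45526428, minus strand).
Dusp8: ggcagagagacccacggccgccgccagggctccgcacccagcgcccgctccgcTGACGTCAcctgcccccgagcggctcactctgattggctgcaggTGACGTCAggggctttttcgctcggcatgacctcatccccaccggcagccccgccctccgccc
Ppp1r15a: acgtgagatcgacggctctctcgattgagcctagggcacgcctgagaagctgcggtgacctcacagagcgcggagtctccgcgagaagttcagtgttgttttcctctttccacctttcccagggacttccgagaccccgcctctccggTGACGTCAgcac
Sprr1a, a cross-linked envelope protein of stressed epithelia, and Srxn1, the sulfiredoxin that restores peroxiredoxins, are shown for the AP-1 site, at 146 and 116 bases before the start of Sprr1a (chr3:92485882-92486041, minus strand) and 102 and 45 bases before that of Srxn1 (chr2:152105364-152105523, plus strand).
Sprr1a: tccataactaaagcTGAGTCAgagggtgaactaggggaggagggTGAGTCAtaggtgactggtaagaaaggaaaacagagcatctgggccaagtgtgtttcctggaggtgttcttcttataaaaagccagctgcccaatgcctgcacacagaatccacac
Srxn1: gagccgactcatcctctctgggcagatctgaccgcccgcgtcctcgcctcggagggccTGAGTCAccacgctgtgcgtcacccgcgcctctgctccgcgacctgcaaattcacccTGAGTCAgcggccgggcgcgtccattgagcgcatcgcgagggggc
Cxcl2 and Cxcl1, chemokines that recruit neutrophils, are shown for the NF-kB site, at 96 bases before the start of Cxcl2 (chr5:90903739-90903898, plus strand) and 70 bases before that of Cxcl1 (chr5:90891085-90891244, plus strand).
Cxcl2: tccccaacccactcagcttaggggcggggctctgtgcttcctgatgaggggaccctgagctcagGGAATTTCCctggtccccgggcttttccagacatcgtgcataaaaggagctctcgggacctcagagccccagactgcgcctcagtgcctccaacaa
Cxcl1: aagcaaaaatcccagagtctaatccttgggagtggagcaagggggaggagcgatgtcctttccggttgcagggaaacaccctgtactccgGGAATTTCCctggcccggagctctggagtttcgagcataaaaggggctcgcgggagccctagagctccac

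Over all tested genes, the heat shock element core was present in 897 of 16671 promoters (5.38%) and the AP-1 site in 921 (5.52%). The antioxidant element was present in 1874 (11.2%), the CRE in 359 (2.15%) and either NF-kB site in 110 (0.66%). Among the 862 promoters of genes called higher by at least 2-fold, the shares were 5.68% for the heat shock element core, 14.5% for the antioxidant element, 8.82% for the AP-1 site, 3.36% for the CRE and 1.51% for NF-kB. Among the 754 promoters of genes called lower by at least 2-fold, the shares were 6.63% for the heat shock element core, 13.4% for the antioxidant element, 5.04% for the AP-1 site, 0.531% for the CRE and 0.663% for NF-kB. The heat shock element core was thus less frequent among the rises than among the falls, and the antioxidant element was above its share over all genes in both. In the list of cytosolic heat shock chaperones 7 of 42 promoters (16.7%) held the heat shock element core and as many held the antioxidant element, and in the chemokine list 4 of 25 (16%) held an NF-kB site. In the list of thioredoxin and other NRF2 targets 8 of 30 (26.7%) held the antioxidant element, which was present in more of the EGR, KLF, NR4A and MYC factors, 12 of 28 (42.9%). These shares are descriptions, since several promoters can belong to 1 gene.

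The first comparison asked which liver genes stood higher or lower 6 h after APAP. Most listed genes of cytosolic chaperones, the proteasome, ribosome biogenesis, the cytoskeleton, AP-1 and neutrophils were higher. Most listed genes of coagulation, drug conjugation, amino acid catabolism, lipid synthesis and the respiratory chain were lower. Among chaperones of mitochondria and of the endoplasmic reticulum more were called lower than higher, with a share higher near that of all genes. Genes of fatty acid oxidation were more often called higher than lower, with a share lower below that of all genes. Of 17052 genes, 6578 were called (38.6%), 2816 higher (16.5%) and 3762 lower (22.1%), and over all probe sets the share called was 38%. A difference of at least 2-fold was called for 833 higher (4.89%) and 725 lower (4.25%). Beyond a log2 difference of 3 there were 80 called rises and 11 called falls. The filter used the mean over all arrays, so a gene dim in untreated liver could enter through its treated arrays. A fall of this size needs an untreated level well above the dimmest values. These counts therefore depend on the filter and on the lower end of the intensity scale. Whether rises were stronger than falls apart from that was not tested. The median gene moved by -0.05, with a median standard error of 0.13, and the middle 90% of genes ran from -0.94 to 1.0. Genes that fell by at least 2-fold had a median untreated log2 level of 9.33, against 7.39 for those that rose by at least 2-fold and 7.02 for all genes. The smallest difference called was 0.24, and the untreated and 6 h arrays did not overlap for 5135 genes that stood higher (30.1%) and 6834 that stood lower (40.1%), so an absence of overlap alone was common.

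**Figure D1:**
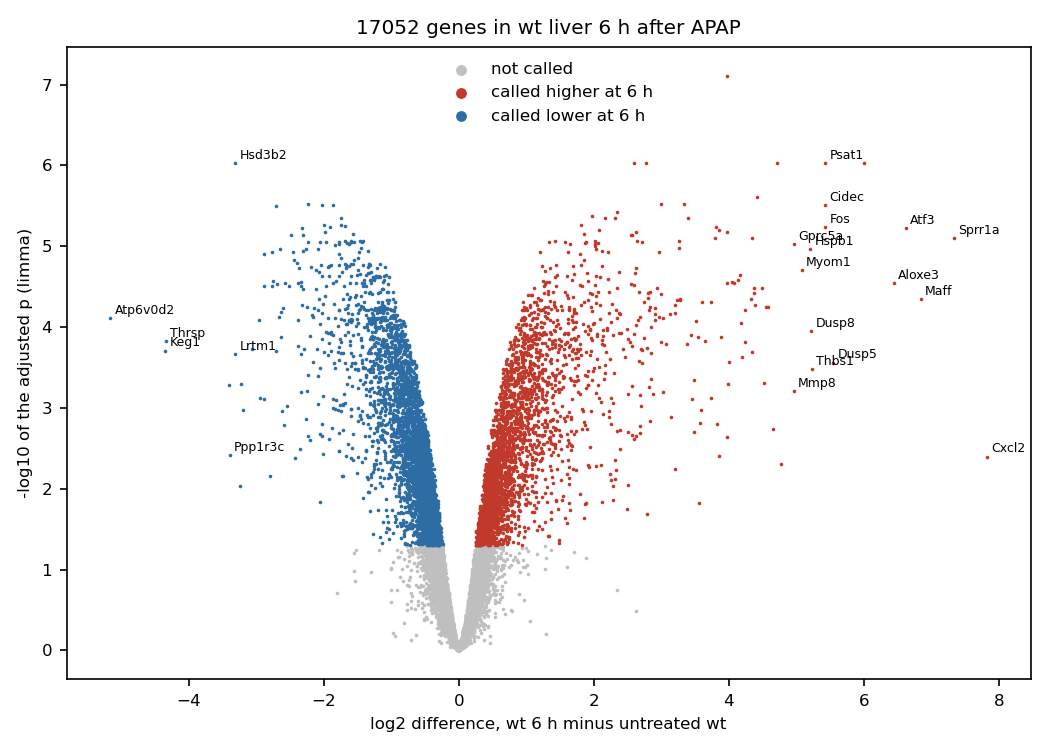
Each of the 17052 points is a gene, with its log2 difference between wt liver at 6 h and untreated wt liver on the x axis and the -log10 of limma's adjusted p on the y axis. Red points are the 2816 genes called higher, blue points the 3762 called lower, and the arm of rises extends to a log2 difference of 7.82 against -5.16 on the side of falls.

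Transcription factors of the early stress response stood far above the untreated level. Of 16 AP-1 and small MAF factors measured, 12 rose and none fell, with a median log2 difference of 2.12 against -0.05 over all genes. Atf3, a stress factor of the ATF family, read 6.59 and 5.56 in untreated liver, then 11.75 and 11.86 at 2 h and 12.66 and 12.74 at 6 h. It rose by 6.62 ± 0.40 (adjusted p = 6e-06), and its 6 h arrays were the highest of the wt series. Jun, the partner of FOS in AP-1, went from 8.58 and 7.71 to 12.51 and 12.54, a rise of 4.38 ± 0.38 (adjusted p = 3.32e-05), most of which was present at 2 h with 12.20 and 12.40. Of the small MAF factors, which pair with NRF2 and BACH1, Mafk and Maff rose, and Mafg was not called at 0.35 (adjusted p = 0.0778). Mafk read 6.25 and 6.35 untreated and 9.29 and 8.91 at 6 h, a rise of 2.80 ± 0.26. Maff read 3.48 and 4.48 untreated and 10.97 and 10.68 at 6 h, a rise of 6.84 ± 0.63, which was 5.83 when 16 was added before the log2 because the untreated intensity was low. Junb (2.90 ± 0.30), Fosl2 (2.82 ± 0.28) and Bach1 (2.12) were also called higher.

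Of 34 EGR, KLF, NR4A and MYC factors and related early genes, 21 rose and 1 fell (median 0.84). Myc, a driver of growth and ribosome production, read 6.33 and 6.88 untreated, 8.23 and 8.33 by 2 h and 11.33 and 11.04 by 6 h, a rise of 4.58 ± 0.44 (adjusted p = 5.64e-05). Egr1 instead read 12.01 and 12.15 at 2 h, close to its 6 h values of 12.04 and 11.95, from 8.18 and 8.03 untreated, a rise of 3.89 ± 0.45 (adjusted p = 0.000131). Ier3, an early response gene tied to cell survival, rose by 4.39 ± 0.42, from 5.33 and 5.24 to 9.92 and 9.43. Ccn1, a matrix-bound target of YAP and SRF, rose by 4.08 ± 0.35, from 7.34 and 7.15 to 11.46 and 11.18. Klf15, a factor of fasting amino acid metabolism, was the member that fell, from 9.49 and 9.43 to 8.10 and 8.34 (-1.24 ± 0.13, adjusted p = 8.26e-05). Klf2 (0.10), Klf4 (0.27) and Egr3 (0.25) were not called.

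Among 28 MAP kinase phosphatases and JNK pathway genes, 18 rose and 2 fell (median 0.83). Dusp8 read 6.08 and 4.84 untreated and 10.58 and 10.77 at 6 h, a rise of 5.22 ± 0.58 (adjusted p = 0.000113). Dusp14, another MAP kinase phosphatase, was unlike it in time: 7.29 and 7.09 untreated and 7.09 and 7.16 at 2 h, then 9.22 and 9.61 at 6 h, a rise of 2.22 ± 0.22. The kinases upstream of JNK and p38 rose less. Map3k5 (ASK1), which senses oxidised thioredoxin, went from 8.83 and 8.81 to 10.18 and 10.01 (1.27 ± 0.12, adjusted p = 5.64e-05). Map2k3, an activator of p38, went from 9.28 and 9.65 to 10.52 and 10.71 (1.15 ± 0.13). Gadd45b, an activator of MAP kinase signalling, rose by 3.73 ± 0.35, from 6.16 and 6.71 to 10.54 and 9.79. Sh3bp5 (Sab), the outer mitochondrial membrane protein that binds JNK, fell by 0.64 ± 0.13 (adjusted p = 0.00376), and Dusp6, a phosphatase of ERK, was not called at 0.64 (adjusted p = 0.16).

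Most cytosolic chaperones rose, while chaperones of the mitochondria and the endoplasmic reticulum were more often called lower than higher. Of 34 cytosolic heat shock chaperones and co-chaperones, 20 rose and 2 fell (median 0.61). Dnajb1, the HSP40 partner of HSP70, read 8.31 and 7.15 untreated, 10.03 and 10.86 after 2 h and 12.21 and 12.35 after 6 h, a rise of 4.55 ± 0.44 (adjusted p = 5.64e-05). Hsph1 (HSP110), which reloads HSP70 with ATP, went from 9.34 and 8.72 to 12.03 and 12.42, a rise of 3.20 ± 0.31 (adjusted p = 5.39e-05). Hspb8, a small heat shock protein that works with Bag3, went from 10.63 and 10.34 to 12.18 and 12.31 (1.76 ± 0.23), and Bag3 itself rose by 3.74. In each of these genes both 6 h arrays lay above both untreated arrays. Hspb1, whose promoter is shown above, read 6.74 and 6.53 untreated, then 8.57 and 8.45 at 2 h and 11.72 and 11.96 at 6 h, a rise of 5.21 ± 0.37. Another probe set of Hspb1 gave 5.28 and a dim one -0.60. The co-chaperones St13 (0.03) and Cdc37 (0.10) were not called.

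In the TRiC chaperonin, which folds actin and tubulin, and its partner prefoldin, 8 of 15 members rose and 2 fell (median 0.46). Without untreated replicate 2, or without 6 h replicate 2, 4 rose. Cct3 read 9.69 and 9.55 untreated and 10.39 and 10.64 at 6 h, a rise of 0.89 ± 0.16 (adjusted p = 0.00195), and Cct2 rose by 0.63 ± 0.13. All rises in this list were of TRiC subunits. The falls were of prefoldin subunits, Pfdn5 (-0.44 ± 0.12) and Pfdn1 (-0.40 ± 0.12). Of 15 mitochondrial chaperones and proteases, 3 rose and 6 fell (2 fell without untreated replicate 2 or without 6 h replicate 1). The HSP60 and HSP10 pair that folds matrix proteins rose. Hspd1 (HSP60) went from 11.61 in both untreated arrays to 12.51 and 12.68 (0.98 ± 0.13, adjusted p = 0.000345). Hspe1 (HSP10) went from 11.34 and 11.28 to 12.33 and 12.48 (1.09 ± 0.12). Clpx, the unfoldase of a matrix protease, fell from 11.02 and 10.65 to 9.89 and 9.51 (-1.14 ± 0.26, adjusted p = 0.00594), while Lonp1, the other main matrix protease, was not called at -0.04.

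Of 28 chaperones and degradation factors of the endoplasmic reticulum, 6 rose and 10 fell (median -0.28). The rises numbered 3 without untreated replicate 2 or 6 h replicate 1, and the falls 6 without untreated replicate 1 or 6 h replicate 1. Ero1a, the oxidase of disulfide formation, read 8.95 and 8.71 untreated and 10.27 and 10.04 at 6 h (1.32 ± 0.13, adjusted p = 6.71e-05). Hspa5 (BiP), the main HSP70 of this compartment, read 11.97 and 11.57 untreated, 11.41 and 11.63 by 2 h and 12.60 and 12.71 by 6 h (0.88 ± 0.16, adjusted p = 0.00152). Others of the list fell. Edem1, which marks misfolded glycoproteins, fell from 11.55 and 11.41 to 10.35 and 10.29 (-1.16 ± 0.10, adjusted p = 3.7e-05). Sel1l, the adaptor of the degradation ligase, fell by 0.98 ± 0.14, and Pdia6, a disulfide isomerase, fell from 10.72 and 10.53 to 9.58 and 9.63 (-1.02 ± 0.17). Hsp90b1 (GRP94) was not called at -0.28 (adjusted p = 0.143).

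Most proteasome subunits rose, by small amounts. Of 34 subunits and assembly factors, 26 rose and none fell (median 0.62). Psmd14, the deubiquitinase of the lid, read 10.32 and 10.24 untreated and 11.23 and 11.39 at 6 h (1.03 ± 0.09, adjusted p = 4.05e-05). Psma5, a subunit of the core ring, read 8.73 and 8.63 untreated and 9.68 and 9.70 at 6 h (1.01 ± 0.10, adjusted p = 6.18e-05). The inducible subunits of the immunoproteasome, which were listed with the interferon-induced genes, fell. Psmb8 went from 7.95 and 8.18 to 7.04 and 7.09 (-1.0 ± 0.13, adjusted p = 0.000302), and Psmb9 fell by 1.17 ± 0.25. Of 24 ubiquitin and selective autophagy genes, 14 rose and 3 fell, and 8 rose and 1 fell without untreated replicate 2. Zfand2a (AIRAP), a proteasome-associated protein induced by arsenite, read 9.48 and 9.14 untreated, 10.31 and 10.61 after 2 h and 12.50 and 12.64 after 6 h (3.26 ± 0.23, adjusted p = 1.04e-05). Vcp, the segregase that extracts ubiquitinated proteins, rose by 0.71 ± 0.11, and its cofactors Ufd1 and Nploc4 rose by 0.94 ± 0.12 and 0.79.

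The integrated stress response, in which phosphorylated eIF2 alpha favours translation of ATF4, was followed through mRNA of regulators and amino acid genes. Neither phosphorylation of eIF2 alpha nor ATF4 protein was measured by these arrays. Of 19 regulators, 13 rose and 1 fell (median 1.18). Trib3, a pseudokinase that feeds back on ATF4, read 5.75 and 5.58 untreated, then 6.76 and 7.04 at 2 h and 8.02 and 8.08 at 6 h (2.38 ± 0.27, adjusted p = 0.000117). Ppp1r15a (GADD34) went from 6.70 and 6.45 to 9.96 and 9.95 (3.38 ± 0.40, adjusted p = 0.000164). Chac1, which degrades glutathione, went from 5.66 and 6.35 to 9.81 and 10.15 (3.98 ± 0.75, adjusted p = 0.00226). Trib3 and Ppp1r15a had begun to rise in both 2 h arrays, and Chac1 in 1 of them, with 2 h values of 6.26 and 7.78. Atf4 itself moved less, from 9.47 and 9.05 to 10.33 and 10.14 (0.98 ± 0.15), and the autophagy receptor Sqstm1 rose by 1.42 ± 0.09.

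Genes of serine, asparagine and one-carbon synthesis moved in both directions. Of 15 genes, 5 rose and 5 fell (median 0.08). Psat1, the aminotransferase of serine synthesis, read 6.23 and 6.11 untreated and 6.39 in both 2 h arrays, then 11.41 and 11.79 at 6 h (5.43 ± 0.22, adjusted p = 9.43e-07). The other enzymes of that short path were not called, with Phgdh at 0.08 (adjusted p = 0.693) and Psph at 0.04 (adjusted p = 0.899). The mitochondrial folate enzyme Mthfd2 rose from 6.84 and 6.59 to 9.35 and 9.46 (2.69 ± 0.28, adjusted p = 7.44e-05). Its cytosolic counterpart Mthfd1 fell from 10.73 and 10.80 to 9.12 and 9.21 (-1.60 ± 0.11, adjusted p = 8.76e-06). Both serine hydroxymethyltransferases fell, the cytosolic Shmt1 from 10.69 and 10.86 to 9.06 and 9.17 (-1.66 ± 0.11) and the mitochondrial Shmt2 by 1.08 ± 0.13.

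Of 17 cytosolic aminoacyl-tRNA synthetases, which charge tRNAs for translation, 10 rose and none fell (median 0.54). Sars, for serine, read 9.37 and 9.06 untreated, 9.49 and 9.53 by 2 h and 10.44 and 10.51 by 6 h (1.26 ± 0.14, adjusted p = 0.000121). Of 16 mitochondrial synthetases, 2 rose and 7 fell (median -0.39), and 4 fell without untreated replicate 2. Fars2 (-0.65 ± 0.12) and Iars2 (-0.49 ± 0.10) were among those that fell. Amino acid transporters went both ways, with 8 of 22 higher and 7 lower. Slc7a5, the large neutral amino acid carrier, read 6.29 and 6.02 untreated and 8.17 and 8.24 at 6 h (2.05 ± 0.23, adjusted p = 0.000129), and its heavy chain Slc3a2 rose by 0.95 ± 0.14. Slc7a11, which imports cystine for glutathione synthesis, read 5.90 and 6.20 untreated, 6.32 and 5.92 after 2 h and 10.81 and 10.84 after 6 h (4.77 ± 1.04, adjusted p = 0.00498). Among those that fell were Slc6a12 (-1.10 ± 0.11) and Slc25a13, the aspartate carrier of the urea cycle (-0.92 ± 0.11), while Slc25a15, the ornithine carrier of that cycle, was not called at -0.19 (adjusted p = 0.504).

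Oxidant defence rose in part of its members. Of 28 thioredoxin and other NRF2 targets, 9 rose and 2 fell (median 0.21). Srxn1 read 7.90 and 7.97 untreated, then 10.17 and 10.55 at 2 h and 12.23 and 12.47 at 6 h (4.42 ± 0.21, adjusted p = 2.46e-06). Akr1b8, an aldo-keto reductase, read 6.24 and 6.18 untreated and 6.12 and 5.94 at 2 h, then 8.34 and 8.20 at 6 h (2.06 ± 0.14). Osgin1, an oxidant-induced growth inhibitor, went from 10.86 and 11.07 to 12.27 and 12.16 (1.25 ± 0.20). Common NRF2 targets were not called, with Txn1 at 0.06 (adjusted p = 0.682), Prdx1 at 0.04 and Cbr1 at 0.0 (adjusted p = 0.999), and so was Nfe2l2, which encodes NRF2, at 0.30 (adjusted p = 0.0889). Of 19 genes of glutathione synthesis and recycling, 8 rose and 3 fell (median 0.09). Gsr, the glutathione reductase, rose by 0.59 ± 0.10, and Gss, the last enzyme of synthesis, by 0.56 ± 0.13, but Gclm, a subunit of the first enzyme, was not called at 0.09 (adjusted p = 0.575). Pgd, a source of NADPH, read 8.79 and 8.89 untreated, 8.14 and 8.33 by 2 h and 9.62 and 9.93 by 6 h (0.93 ± 0.14). Chac2, a glutathione-degrading relative of Chac1, fell from 9.97 and 10.05 to 7.97 and 8.20 (-1.92 ± 0.15, adjusted p = 1.76e-05).

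Enzymes that conjugate or oxidise drugs were mostly lower. Probe sets of near-identical members of the Gst, Ugt, Cyp2 and Hsd3b families may share signal, so single members of these families are uncertain. Of 16 glutathione S-transferases, 1 rose and 13 fell (median -0.73), and 8 fell without untreated replicate 2 or without 6 h replicate 1. Gstp1 was the one that rose, from 10.52 and 10.55 to 11.88 and 11.95 (1.38 ± 0.16, adjusted p = 0.000161). Gstm6 fell from 10.62 and 10.45 to 8.57 and 8.59 (-1.96 ± 0.22, adjusted p = 0.000115). Of 17 glucuronidation and sulfation genes, 1 rose and 12 fell (median -0.81). Sult1b1, a sulfotransferase of phenols, fell from 8.78 and 9.0 to 6.45 and 6.71 (-2.31 ± 0.16, adjusted p = 1.13e-05), with 2 h values of 7.24 and 7.61 between. Papss2, which makes the sulfate donor, fell by 1.38 ± 0.18. Ugdh, which makes the donor for glucuronidation, rose by 0.92 ± 0.14, from 10.87 and 11.04 to 11.82 and 11.94. Of 30 xenobiotic P450s, 1 rose and 16 fell (median -0.61). Cyp2c23, an epoxygenase, fell from 10.24 and 10.51 to 7.35 and 7.88 (-2.76 ± 0.24, adjusted p = 3.08e-05), whereas Cyp2e1, the main oxidase of APAP, was not called at -0.11 (adjusted p = 0.361) and Cyp3a11 was not called at -0.13.

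Genes of cell cycle arrest and cell death were more often called higher than lower, beside 16.5% of all genes called higher and 22.1% lower. Of 22 p53 arrest and feedback targets, 9 rose and 4 fell (median 0.25). Cdkn1a (p21), the inhibitor of cyclin-dependent kinases, read 8.18 and 6.02 untreated, 11.46 and 11.68 after 2 h and 11.67 and 11.57 after 6 h (4.52 ± 0.66, adjusted p = 0.000497). Plk3, a stress kinase, followed the same course, with 8.57 and 8.26, then 11.99 and 11.83, then 11.91 and 11.80 (3.44 ± 0.39). Ccng1, another p53 target, fell by 0.57 ± 0.12, and Bbc3 (PUMA) was not called at 0.39 (adjusted p = 0.067). Of 31 BCL2 family members and death receptors, 12 rose and 5 fell, and 3 fell when any 1 of the 4 arrays was left out. Tnfrsf12a (Fn14), the receptor of TWEAK, read 8.14 and 7.54 untreated, then 10.42 and 10.33 at 2 h and 12.52 and 12.58 at 6 h, a 26.1-fold rise (4.71 ± 0.18, adjusted p = 9.43e-07). The pro-death Bcl2l11 (BIM) rose from 6.20 and 6.22 to 7.87 and 7.94 (1.70 ± 0.14). The pro-survival Bcl2l1 (BCL-XL) read 7.84 and 7.87 untreated and 7.85 and 7.81 at 2 h, then 9.72 and 9.23 at 6 h (1.62 ± 0.15, adjusted p = 4.34e-05). Mlkl, the effector of necroptosis, rose from 7.21 and 7.44 to 8.55 and 8.48 (1.19 ± 0.15), and Casp8 was not called at 0.16 (adjusted p = 0.258). Fas (-0.79 ± 0.18) and Fadd (-0.79 ± 0.16) were among the members of this list that fell.

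Many inflammatory genes and most neutrophil markers were higher at 6 h. In bulk liver, more cells of a type and more RNA per cell cannot be told apart. Of 17 neutrophil markers, 13 rose and 1 fell (median 2.49). S100a9, a calcium-binding protein of neutrophils, read 5.85 and 5.77 untreated, 6.20 and 6.30 by 2 h and 8.83 and 8.28 by 6 h (2.75 ± 0.26, adjusted p = 4.94e-05). Retnlg, a resistin-like protein of mature neutrophils, read 4.47 and 4.89 untreated and 9.14 and 8.21 at 6 h (3.99 ± 0.58). Granule genes of precursors did not move together. Ngp was called higher (0.57 ± 0.16, adjusted p = 0.0203) and Ltf lower (-0.35 ± 0.12, adjusted p = 0.0402). Mpo at 0.23 (adjusted p = 0.197), Camp at 0.07 and Elane at -0.70 (adjusted p = 0.0635) were not called. The summed intensity of the 17 markers was 1068 and 1078 in untreated liver, then 2502 and 2573 at 2 h and 9604 and 5714 at 6 h, so 6 h replicate 1 stood above replicate 2. These sums include Lcn2, which is described below with the acute phase reactants and was the brightest member in every wt array. Lcn2 was also the only member called at 2 h (2.72 ± 0.22), so the 2 h sums are not a measure of the other markers.

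Of 32 chemokines and receptors, 13 rose and 3 fell (median 0.24). Cxcl1 read 7.34 and 7.20 untreated, 7.09 and 6.75 after 2 h and 10.65 and 10.31 after 6 h (3.21 ± 0.32, adjusted p = 6.71e-05). Ccl2, which recruits monocytes, went from 5.86 and 6.50 to 10.21 and 10.82 (4.34 ± 0.54, adjusted p = 0.000202), and Ccl7, a related chemokine, rose by 1.74 ± 0.20. Both 6 h arrays lay above all other wt arrays in these genes. Cxcl12, the homeostatic chemokine of endothelium and stroma, fell from 10.96 and 10.99 through 9.72 and 9.71 at 2 h to 8.85 and 9.05 (-2.03 ± 0.10, adjusted p = 3.06e-06). Ccl5 was not called at -0.11.

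Of 36 IL-1, TNF and NF-kB feedback genes, 21 rose and 3 fell (median 0.64). Cd14, the endotoxin co-receptor, read 5.25 and 5.24 untreated, then 8.76 and 8.54 at 2 h and 9.62 and 9.23 at 6 h (4.17 ± 0.34, adjusted p = 2.25e-05). Tnfaip3 (A20), which limits NF-kB, read 6.57 and 6.42 untreated and 6.97 and 6.78 at 2 h, then 9.72 and 9.25 at 6 h (2.99 ± 0.35). The IL-1 receptor Il1r1 rose from 8.92 and 8.70 to 11.04 and 10.84 (2.13 ± 0.24), and the receptor antagonist Il1rn by 2.69 ± 0.50. The IL-1 family cytokine Il18 fell from 7.67 and 8.08 to 5.34 and 5.78 (-2.32 ± 0.22, adjusted p = 5.31e-05). The cytokine genes Tnf, at 0.23 (adjusted p = 0.332), and Il6, at 0.02 (adjusted p = 0.937), were not called. The part of the neutrophil markers in these rises was not tested.

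Of 20 genes of IL-6 type signalling and SOCS feedback, 11 rose and 1 fell (median 0.78). Osmr, the oncostatin M receptor, read 7.18 and 7.25 untreated and 7.26 in both 2 h arrays, then 9.59 and 9.53 at 6 h (2.34 ± 0.13, adjusted p = 3.78e-06). Socs3, the feedback inhibitor of the pathway, went from 5.86 and 5.85 to 9.14 and 8.51 (2.97 ± 0.21). Lifr, the receptor of LIF, was the member that fell, by 1.0 ± 0.19. Of 24 acute phase reactants, 3 rose and 8 fell (median -0.08). The falls numbered 4 without untreated replicate 1 and 5 without either 6 h array. Lcn2, an iron-sequestering protein, read 7.74 and 8.04 untreated, 10.58 and 10.66 by 2 h and 12.01 and 11.39 by 6 h (3.81 ± 0.22, adjusted p = 5.75e-06). Hp, haptoglobin, rose by 0.52 ± 0.10, while Crp fell by 0.72 ± 0.09 and Saa4 by 1.18 ± 0.14. Of 14 metallothioneins and zinc transporters, 5 rose and 2 fell. Mt1, which binds zinc and copper, read 8.58 and 8.52 untreated, 12.19 and 12.20 after 2 h and 12.61 and 12.44 after 6 h, a 15.7-fold rise with the lowest adjusted p of all genes (3.98 ± 0.11, adjusted p = 7.75e-08). Slc39a8, a zinc importer, fell by 0.84 ± 0.12.

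Markers of resident cells moved in both directions, beside 16.5% of all genes called higher and 22.1% lower. Of 18 Kupffer cell and macrophage markers, 2 rose and 7 fell (median -0.33), and the summed intensity went from 9255 and 9639 to 7213 and 7845. Adgre1 (F4/80) read 8.22 and 8.31 untreated, then 7.50 and 7.37 at 2 h and 6.91 and 7.33 at 6 h (-1.15 ± 0.15, adjusted p = 0.000248), and the receptor Csf1r fell by 1.0 ± 0.14. Of 20 sinusoidal endothelium markers, 5 rose and 9 fell, and between 3 and 4 fell without untreated replicate 1, untreated replicate 2 or 6 h replicate 2. Their summed intensity was 12895 and 12774 untreated and 12319 and 10992 at 6 h. Kdr (VEGF receptor 2) fell by 1.21 ± 0.15, and Lyve1, a hyaluronan receptor, rose from 8.18 and 8.24 to 10.17 and 10.47 (2.11 ± 0.46, adjusted p = 0.00503). Of 17 stellate cell and fibroblast markers, 2 rose and 6 fell, and the summed intensity was 10181 and 10470 untreated and 10310 and 9698 at 6 h, so that the groups overlapped. Among them were Lrat, which makes retinyl esters, at -1.51 ± 0.35, and Pdgfra at 1.0 ± 0.14. Of 16 lymphocyte and NK cell markers, 1 rose and 3 fell, and the summed intensity stayed between 1137 and 1364 in the 6 wt arrays. Of 7 erythroid markers, 2 rose and 2 fell, and the summed intensity was 733 and 887 untreated and 2060 and 1332 at 6 h. Alas2, the heme enzyme of red cell precursors and the brightest member, rose from 8.66 and 8.97 to 10.63 and 9.93 (1.47 ± 0.31). Slc4a1 also rose (1.09 ± 0.28), while Klf1 (-0.42 ± 0.12) and Epor (-0.41 ± 0.13) fell. Of 13 fat tissue and pancreas markers, 2 rose and 2 fell.

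Most cytoskeletal genes were higher. Of 33 actin and tubulin genes and their regulators, 27 rose and none fell (median 1.23). Tubb6, a tubulin of dividing and injured cells, read 7.61 and 7.63 untreated, 8.28 and 7.98 by 2 h and 11.35 and 11.61 by 6 h (3.86 ± 0.23, adjusted p = 6.23e-06). Vcl (vinculin), which joins actin to adhesions, went from 8.98 and 8.99 to 10.93 and 10.75 (1.86 ± 0.11, adjusted p = 7.01e-06). The hepatocyte keratin Krt18 went from 10.54 and 10.70 to 12.68 in both 6 h arrays (2.06 ± 0.18). Myh9, the non-muscle myosin, read 9.73 and 9.79 untreated, then 9.69 and 9.68 at 2 h and 11.03 in both 6 h arrays (1.27 ± 0.13). The untreated and 6 h arrays of these genes did not overlap, and their 2 h arrays stayed nearer to the untreated level. Srf, the factor that controls actin genes, rose by 2.06.

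Of 18 ductal and epithelial stress markers, 10 rose and 2 fell (median 0.44). Sprr1a read 5.11 and 5.12 untreated, 5.79 and 5.08 after 2 h and 11.70 and 13.20 after 6 h (7.33 ± 0.47). Ly6d, a surface protein of squamous epithelia, rose from 7.12 and 7.29 to 10.28 and 10.27 (3.07 ± 0.37). The cholangiocyte keratins Krt19 (0.44, adjusted p = 0.1) and Krt7 (0.28, adjusted p = 0.133) were not called. Of 31 EGF receptor ligands, growth factors and receptors, 15 rose and 6 fell (median 0.36). Nrg1, a ligand of ERBB3 and ERBB4, read 4.90 and 5.04 untreated, then 5.78 and 5.47 at 2 h and 9.06 and 9.14 at 6 h (4.13 ± 0.35, adjusted p = 2.64e-05). Hbegf, a ligand of EGFR, went from 6.75 and 6.93 to 10.63 and 10.02 (3.49 ± 0.50), and Btc, another ligand, rose by 2.25 ± 0.24. The receptor Erbb3 fell by 1.39 ± 0.20, and the growth hormone receptor Ghr fell from 12.18 and 12.17 to 11.01 and 10.89 (-1.23 ± 0.10, adjusted p = 2.3e-05). Egfr, at 0.33 (adjusted p = 0.617), and Met, at -0.14 (adjusted p = 0.421), were not called.

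Of 15 genes of fibrinolysis and the tissue factor axis, 9 rose and 1 fell (median 0.66), and 5 rose without untreated replicate 1. Plaur, the urokinase receptor, read 4.89 and 5.23 untreated and 8.15 and 7.82 at 6 h (2.93 ± 0.26, adjusted p = 3.24e-05). Thbs1 (thrombospondin 1), an activator of TGF-beta, read 5.19 and 5.21 untreated, 8.32 and 8.39 by 2 h and 10.61 and 10.24 by 6 h (5.23 ± 0.71, adjusted p = 0.000334). Anxa2, a plasminogen receptor, rose at 6 h from 7.37 and 7.35 to 9.61 and 9.91 (2.40 ± 0.27), with 7.33 and 7.44 at 2 h. Of 30 collagens and matrix genes, 12 rose and 7 fell (median 0.11), and the falls numbered 2 without untreated replicate 1, 3 without untreated replicate 2 and 4 without 6 h replicate 2. The proteases Adamts4 (4.18 ± 0.45) and Adamts1 (2.99 ± 0.27) rose, as did the basement membrane chain Col4a1 (1.32 ± 0.19), while Col3a1 fell by 0.91 ± 0.17 and Col1a1 was not called at -0.08.

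Genes that build ribosomes had the highest share of members called higher among the 59 lists. Of 39 ribosome biogenesis genes, 35 rose and none fell (median 1.11). Rrp9, a protein of the U3 particle that processes ribosomal RNA, read 6.56 and 6.26 untreated, 6.69 and 6.96 after 2 h and 8.0 and 8.30 after 6 h (1.74 ± 0.17, adjusted p = 6.71e-05). Gar1, of the pseudouridylation particles, went from 7.45 and 7.12 to 8.84 and 8.96 (1.62 ± 0.17), and Polr1b, a subunit of RNA polymerase I, from 7.54 and 7.33 to 8.81 and 8.83 (1.39 ± 0.15). Ubtf, the polymerase I factor, was not called at 0.26 (adjusted p = 0.0516). The cytosolic ribosomal proteins themselves stood close to the untreated level, with 5 of 35 higher and 1 lower (median 0.12), and none higher without either untreated array. Of 31 translation initiation factors, 17 rose and 1 fell (median 0.39). Eif4e, which binds the mRNA cap, read 8.98 and 8.65 untreated, then 8.91 and 9.04 at 2 h and 10.31 and 10.58 at 6 h (1.63 ± 0.16, adjusted p = 5.64e-05). Eif4ebp1, which inhibits it and is a target of ATF4, rose by 1.18 ± 0.12, and the related Eif4ebp2 fell by 0.94 ± 0.10. Of 30 SR proteins and hnRNPs, the splicing regulators, 16 rose and none fell (median 0.36), with Srsf3 going from 9.90 and 9.85 to 11.45 and 11.53 (1.62 ± 0.17) and Srsf1 not called at -0.04.

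Most clotting and complement genes of the liver were lower. Of 31 coagulation and complement proteins, 27 fell and none rose (median -0.63). Mbl2, the lectin that starts a complement pathway, read 10.51 and 10.64 untreated, 9.20 and 8.92 by 2 h and 8.29 and 8.71 by 6 h (-2.07 ± 0.16, adjusted p = 2.07e-05). C1s1, a complement protease, fell from 10.73 and 10.74 through 10.21 and 10.26 at 2 h to 9.52 and 9.51 (-1.22 ± 0.10, adjusted p = 2.38e-05). F7, the plasma partner of tissue factor, fell from 9.79 and 9.88 to 8.47 and 8.78 (-1.21 ± 0.14, adjusted p = 0.000137). In Mbl2, C1s1 and F7 each 6 h array lay below each untreated array, and the 2 h arrays lay between them. Over all genes, 40.1% stood lower without overlap of the untreated and 6 h arrays. F11 (-0.41), F12 (-0.19), C8a (-0.47) and C8b (-0.61) were the 4 members not called. Iron control was lower too: of 24 BMP-SMAD targets and iron genes, 1 rose and 10 fell, and Hjv (hemojuvelin), the co-receptor that drives hepcidin, fell from 10.09 and 10.54 to 8.86 and 8.27 (-1.75 ± 0.29, adjusted p = 0.00108).

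Of 21 hepatocyte identity factors, 2 rose and 10 fell (median -0.53). Nr5a2 (LRH-1), a regulator of bile acid and lipid genes, fell from 9.74 and 9.89 to 8.74 and 8.67 (-1.11 ± 0.11, adjusted p = 5.41e-05). Prox1 read 10.24 and 10.00 untreated, 10.10 and 10.06 after 2 h and 9.04 and 8.87 after 6 h (-1.16 ± 0.12). Hnf4a, the central factor of the network, was not called at -0.21 (adjusted p = 0.208), and Cebpd, an acute phase factor, rose from 4.55 and 4.70 to 7.75 and 6.62 (2.56 ± 0.38). Of 35 nuclear receptors, 5 rose and 13 fell (median -0.29). Ppara, the receptor of fasting lipid use, read 10.84 and 11.27 untreated, then 11.40 and 11.45 at 2 h and 10.18 and 9.98 at 6 h (-0.98 ± 0.18, adjusted p = 0.00223). The estrogen receptor Esr1 fell from 9.07 and 9.43 to 7.48 and 7.26 (-1.88 ± 0.34), while Pparg, which favours lipid storage, rose by 0.89 ± 0.15.

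Amino acid breakdown was lower. Of 31 genes of the urea cycle and amino acid catabolism, 20 fell and none rose (median -0.60). Haao, of tryptophan breakdown, read 11.84 and 11.88 untreated, 11.02 in both 2 h arrays, and 10.21 and 10.32 at 6 h (-1.59 ± 0.10, adjusted p = 8.66e-06). Amdhd1, of histidine breakdown, fell from 10.96 and 11.01 to 9.18 and 9.26 (-1.77 ± 0.14, adjusted p = 2.34e-05). In the urea cycle, Otc fell from 12.17 and 12.18 to 11.18 and 11.24 (-0.97 ± 0.10), while Cps1, at -0.09 (adjusted p = 0.481), and Arg1, at 0.0 (adjusted p = 0.999), were not called. Of 26 perivenous Wnt-controlled hepatocyte genes, 15 fell and none rose (median -0.55), with Lect2, a secreted protein of perivenous cells, going from 12.06 and 12.03 to 10.65 and 10.84 (-1.30 ± 0.19). Glul, the perivenous glutamine synthetase, was not called at -0.48 (adjusted p = 0.223).

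Genes of glucose handling moved in both directions. Of 25 gluconeogenesis and glycogen genes, 5 rose and 10 fell (median -0.35), and 1 rose without untreated replicate 1 or 6 h replicate 1. Pygl, the liver glycogen phosphorylase, fell from 10.95 and 10.98 through 10.29 and 10.40 at 2 h to 9.57 and 9.33 (-1.52 ± 0.15, adjusted p = 5.31e-05). The glycogen-targeting subunits Ppp1r3c and Ppp1r3b fell by 3.39 ± 0.71 and 2.95 ± 0.46, while the gluconeogenic Pck1 was not called at -0.16 (adjusted p = 0.268). Of 30 hypoxia targets and glycolytic genes, 14 rose and 4 fell (median 0.33). Pkm, the pyruvate kinase of non-hepatocyte and growing cells, read 7.52 and 7.44 untreated, 7.51 and 7.56 by 2 h and 9.06 and 9.04 by 6 h (1.57 ± 0.10, adjusted p = 8.76e-06). Pklr, the liver pyruvate kinase, fell from 11.23 and 11.39 to 8.26 and 9.17 (-2.59 ± 0.46, adjusted p = 0.00162). Slc2a2, the hepatocyte glucose carrier, fell by 1.61 ± 0.19, and Gapdh was not called at -0.05.

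Most genes of lipid synthesis fell. Of 26 genes of cholesterol synthesis and uptake, 1 rose and 17 fell (median -1.04, also -1.04 at 2 h). Sc5d, a late desaturase of cholesterol synthesis, read 12.06 and 11.98 untreated, 10.62 and 10.40 after 2 h and 9.93 and 10.16 after 6 h (-1.98 ± 0.12, adjusted p = 6.56e-06). Of 26 lipogenic genes, 2 rose and 17 fell (median -1.03). Srebf1, the factor that drives them, fell from 9.80 and 10.13 to 7.84 and 7.71 (-2.19 ± 0.17), a level already present at 2 h with 7.70 and 7.87. Acss2, which makes acetyl-CoA from acetate, fell from 10.53 and 10.65 to 8.16 and 8.23 (-2.39 ± 0.18, adjusted p = 1.63e-05). Of 28 bile acid genes, 17 fell and none rose (median -0.63). Akr1d1, a reductase of bile acid synthesis, fell from 11.23 and 11.38 to 8.64 and 8.61 (-2.69 ± 0.23), and Baat, which conjugates bile acids, from 10.26 and 10.25 to 8.68 and 8.63 (-1.60 ± 0.13). Fatty acid oxidation did not share this fall, with 11 of 30 genes higher and 3 lower (median 0.09, 5 lower with a variance trend or in a fit of the 4 arrays alone). Vnn1, a target of PPAR-alpha, read 9.20 and 8.68 untreated, then 12.15 and 12.53 at 2 h and 12.18 and 11.53 at 6 h (2.91 ± 0.28), and Cpt1a, which admits fatty acids to mitochondria, was not called at -0.09.

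Respiratory chain subunits were lower by small amounts, with 30 of 41 lower and none higher (median -0.44), of which 18 were lower without untreated replicate 2 and 17 without 6 h replicate 1. Sdha, of complex II, read 11.76 and 11.69 untreated, 11.39 in both 2 h arrays, and 11 and 11.05 at 6 h (-0.70 ± 0.10, adjusted p = 0.000346). Ndufa9, of complex I, fell by 0.80 ± 0.11, and Cox4i1, of complex IV, was not called at -0.26 (adjusted p = 0.132). Other lists held few calls. Of 29 interferon-induced genes, 4 rose (2 without untreated replicate 1 or 6 h replicate 1) and 4 fell, with Irf1 not called at 0.07. Of 29 cyclins and replication genes, 4 rose and 5 fell. The rises numbered 2 without either untreated array and 1 without 6 h replicate 2, and the falls 2 without untreated replicate 1 and 3 without untreated replicate 2 or 6 h replicate 1. Mcm10, a replication factor, fell from 7.63 and 8.05 to 6.24 and 6.52 (-1.45 ± 0.17), and the proliferation marker Mki67 was not called at -0.15. Of 16 clock genes, 4 rose (2 without either untreated array or 6 h replicate 1) and 1 fell, with Per1 going from 6.86 and 6.05 to 8.86 and 8.35 (2.15 ± 0.31) and Clock not called at 0.11.

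**Figure D2:**
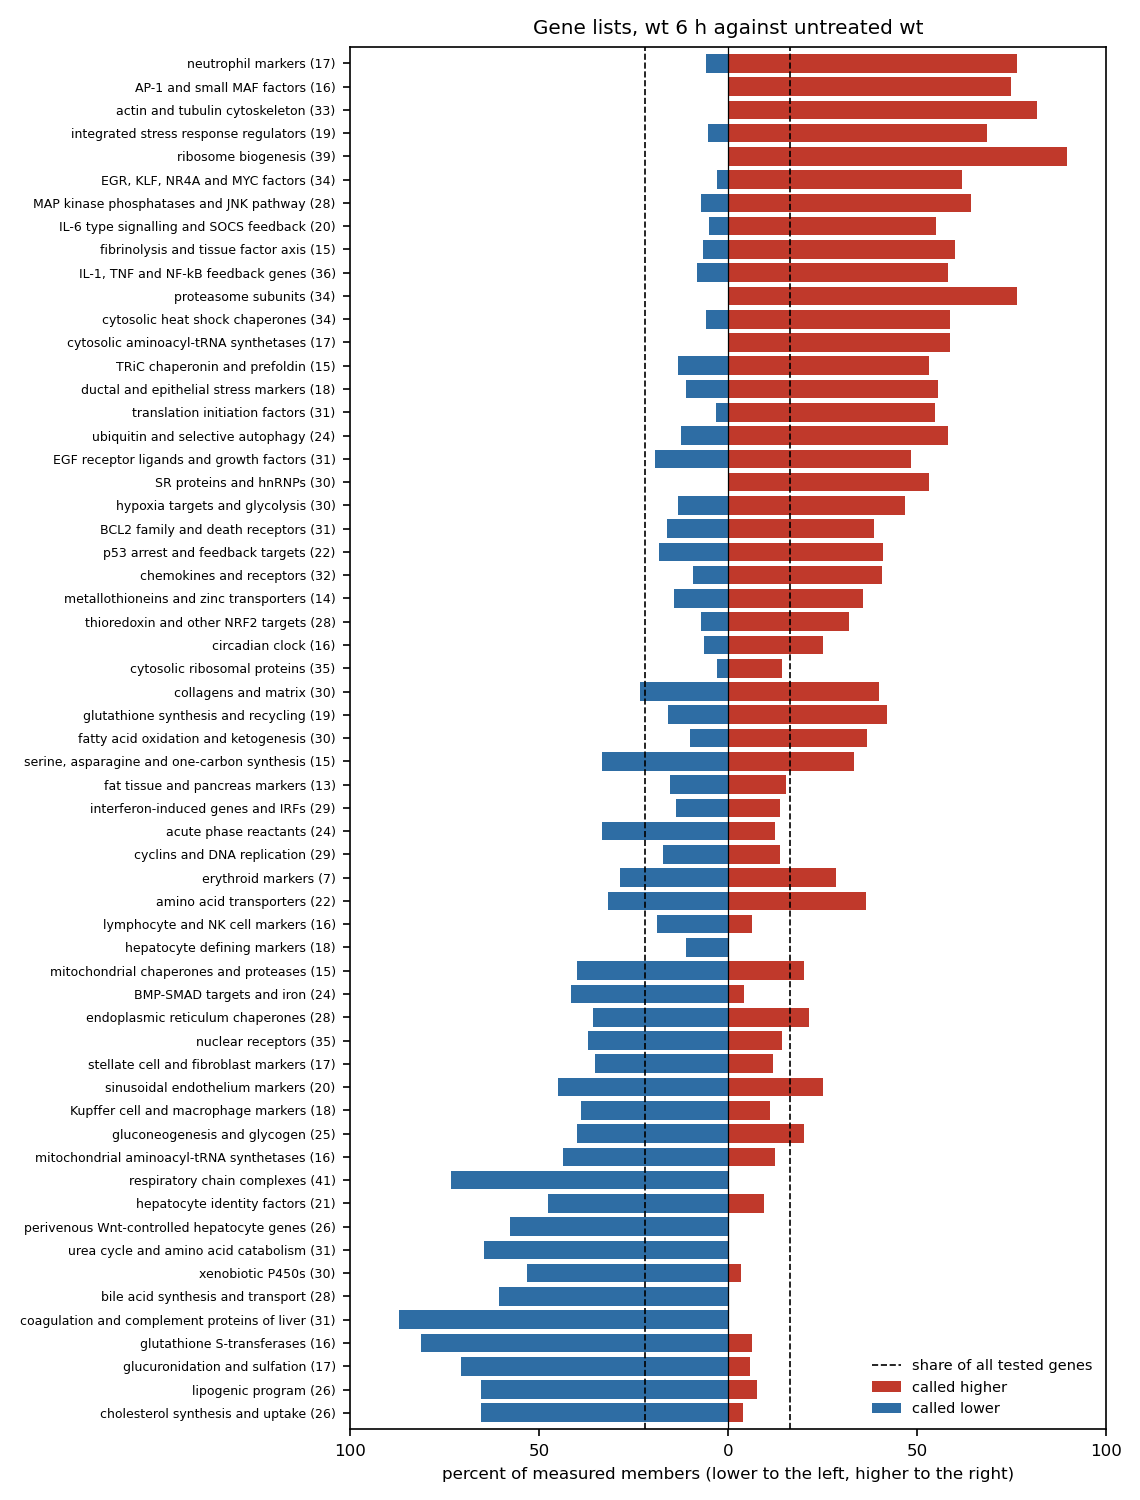
Each bar gives the percent of a list's measured members (number in brackets) called higher, in red to the right, or lower, in blue to the left, in wt liver at 6 h, and the dashed lines give the shares over all tested genes, 16.5% higher and 22.1% lower. Lists are ordered by their median difference, with neutrophil markers (13 of 17 higher) at the top and cholesterol synthesis (17 of 26 lower) at the bottom.

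The 15 largest rises among named genes spanned log2 differences from 4.96 to 7.82, and 1 predicted gene, RIKEN clone or small RNA lay within that range. Cxcl2 read 3.76 and 3.23 untreated, 8.69 and 8.88 by 2 h and 11.61 and 11.01 by 6 h, a difference of 7.82 ± 1.64 (adjusted p = 0.004). Its untreated arrays were dim, and with 16 added before the log2 its difference was 6.55, below the 6.79 of Sprr1a. Aloxe3, an epidermal lipoxygenase, read 3.95 and 4.01 untreated and 4.18 and 4.11 at 2 h, then 9.81 and 11.05 at 6 h (6.45 ± 0.55, adjusted p = 2.87e-05). Gprc5a, a retinoic acid-induced receptor, likewise stood at the untreated level at 2 h, 5.01 and 5.09, and at 10.56 and 9.43 at 6 h (4.96 ± 0.34). Cidec and Myom1 were unlike these, with higher values at 2 h than at 6 h. Cidec, which enlarges lipid droplets, read 5.02 and 5.56 untreated, 11.50 and 11.48 after 2 h and 10.95 and 10.47 after 6 h (5.42 ± 0.28). Myom1, a muscle sarcomere protein, read 1.27 and 1.16 untreated, then 7.89 and 7.32 at 2 h and 6.25 and 6.34 at 6 h, and its difference of 5.08 ± 0.40 was 2.37 with 16 added. Dusp5, a nuclear phosphatase of ERK, went from 4.68 and 4.69 to 10.04 and 10.43 (5.55 ± 0.73). Mmp8, the neutrophil collagenase, read 3.77 and 3.54 untreated and 9.71 and 7.52 at 6 h (4.96 ± 0.75), and it is itself one of the neutrophil markers.

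The 15 largest falls spanned -2.77 to -5.16, with 3 predicted genes, RIKEN clones or small RNAs in that range. Atp6v0d2, part of the proton pump of vesicles, read 8.98 and 9.0 untreated, 6.20 and 3.82 by 2 h and 3.83 and 3.82 by 6 h (-5.16 ± 0.53, adjusted p = 7.77e-05, -4.12 with 16 added). Thrsp (Spot 14), a promoter of lipid synthesis, fell from 10.16 and 11.23 to 6.49 and 6.21 (-4.34 ± 0.51). Keg1, an acyltransferase of the glycine conjugation family, fell from 10.73 and 10.79 to 6.07 and 6.76 (-4.35 ± 0.54). All 15 had lower values in both 2 h arrays than the mean of the untreated arrays. The steroid dehydrogenase probe sets Hsd3b2 and Hsd3b3 fell together, Hsd3b2 from 10.50 and 10.82 to 7.24 and 7.46 (-3.31 ± 0.14, adjusted p = 9.43e-07) and Hsd3b3 from 11.91 and 11.93 to 8.81 and 9.48 (-2.77 ± 0.20). Cyp26a1, which degrades retinoic acid, was at 7.91 and 7.75 untreated, 4.91 and 4.71 after 2 h and 5.05 and 5.03 after 6 h (-2.79 ± 0.65, adjusted p = 0.00703). The other falls in this group were Ppp1r3c, Ppp1r3b, Lrtm1 (-3.31 ± 0.42), Nrep (-3.22), Dsg1c (-3.06), Apol7a (-2.96), B3galt1 (-2.89), Mmd2 (-2.89) and Abca8a (-2.88). None of the 30 genes lost its call under any alternative in which it was tested. A mean log2 of at least 7 leaves dim genes such as Mmp8 untested.

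**Figure D3:**
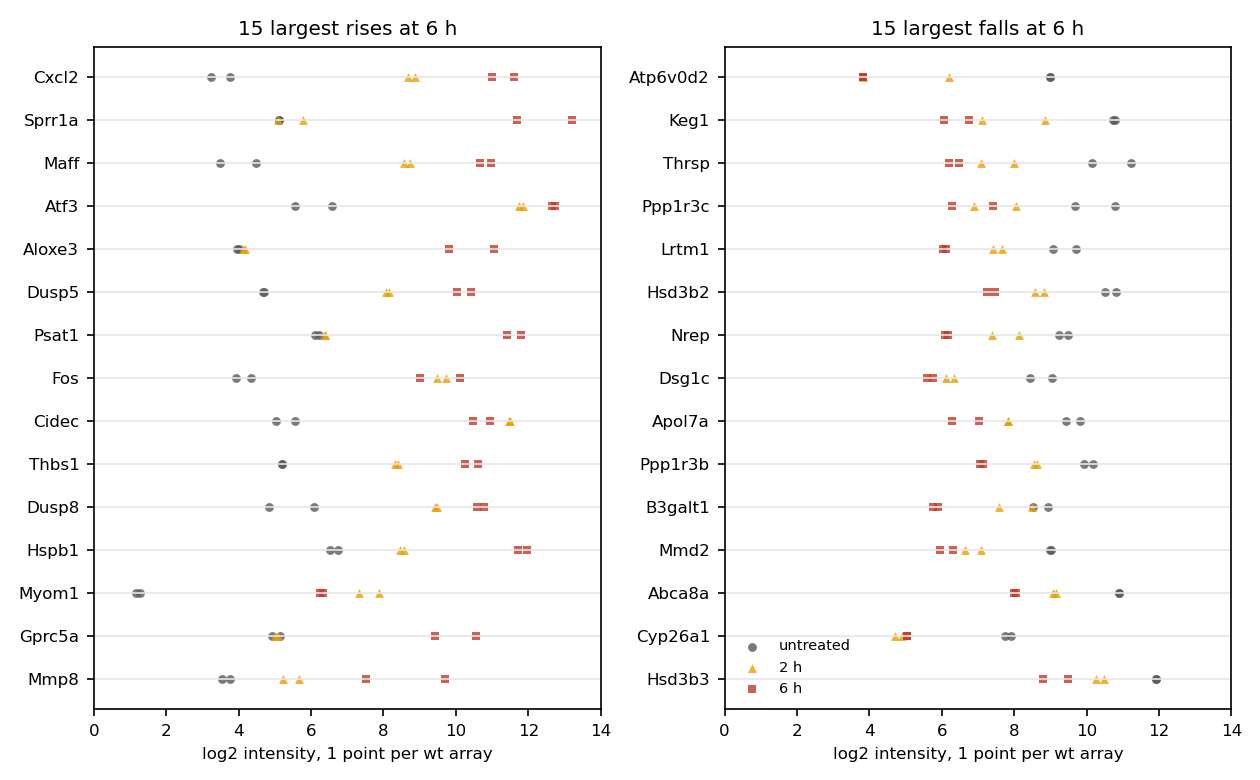
Log2 intensity of the 15 largest rises (left) and 15 largest falls (right), with 1 point for each wt array: grey circles untreated, yellow triangles 2 h, red squares 6 h. Sprr1a, Aloxe3, Psat1 and Gprc5a were near the untreated level at 2 h, while Fos, Cidec and Myom1 had reached or passed their 6 h level by then.

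The second comparison set the 6 h arrays against the 2 arrays of wt liver at 2 h. It asked how much of the 6 h pattern was present early. Ribosome biogenesis, cytoskeletal and neutrophil genes were mainly late. AP-1 factors and cholesterol genes had mostly moved by 2 h, and fatty acid oxidation genes were high at 2 h and lower at 6 h. Of 17052 genes, 4758 were called (27.9%, and 27.3% of probe sets), 1883 higher (11%) and 2875 lower (16.9%) at 6 h than at 2 h. Against untreated liver, 2157 genes were called at 2 h (12.6%), 1107 higher (6.49%) and 1050 lower (6.16%). The 2 h and 6 h comparisons share the untreated arrays, so their values are given side by side. Of the 2816 genes higher at 6 h than untreated, 1541 were also called higher than at 2 h, 68 were called lower than at 2 h and 1207 were not called between the times. Of the 3762 lower genes, 1993 were also called lower than at 2 h, 13 higher, and 1756 were not called.

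Ribosome biogenesis genes had a median of 0.23 at 2 h against 1.11 at 6 h, and 31 of 39 were called higher at 6 h than at 2 h. The cytoskeleton list went from a median of 0.32 to 1.23, with 26 of 33 higher at 6 h than at 2 h, and the neutrophil list from 0.16 to 2.49, with 12 of 17 higher. Cytosolic tRNA synthetases held no called member at 2 h (median 0.07), and 10 of 17 were higher at 6 h than at 2 h. AP-1 and small MAF factors had a median of 1.37 at 2 h and 2.12 at 6 h, and 2 of 16 were called higher at 6 h than at 2 h. Proteasome subunits had 15 of 34 members higher at 2 h and 12 higher at 6 h than at 2 h. Fatty acid oxidation moved against its early direction, with a median of 0.79 and 21 of 30 higher at 2 h, a median of 0.09 at 6 h, and 20 of 30 called lower at 6 h than at 2 h.

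**Figure D4:**
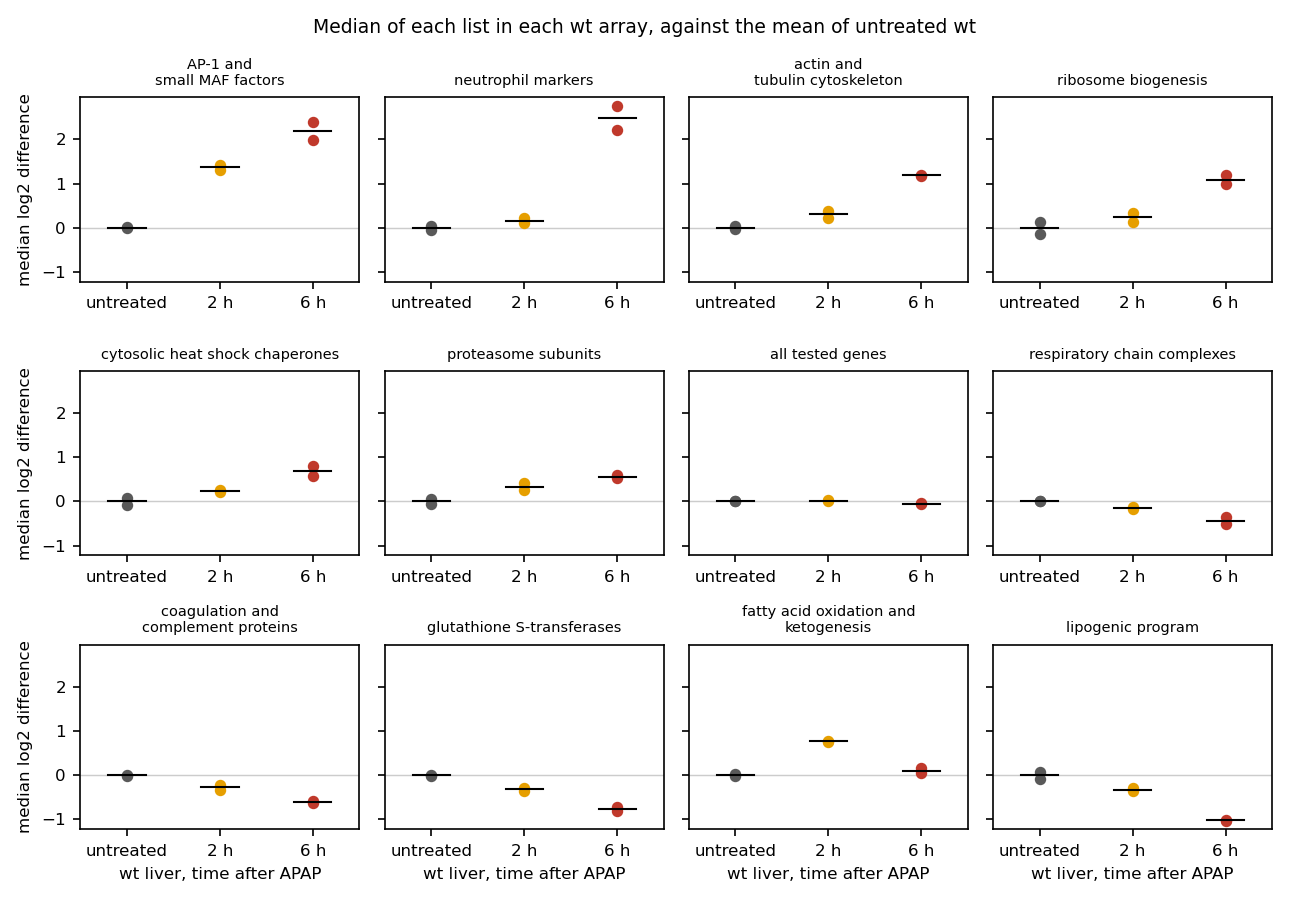
Each panel gives, for 1 list and for all tested genes, the median over its members of the log2 difference from the mean of untreated wt liver, with 1 point per wt array and a bar at the mean of the 2 arrays. Neutrophil markers stood at 0.22 and 0.10 in the 2 h arrays and 2.76 and 2.21 in the 6 h arrays, while fatty acid oxidation was high at 2 h and near the untreated level at 6 h.

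The 5 largest rises from 2 h to 6 h among genes called at 6 h were Sprr1a (7.02 ± 0.47, adjusted p = 4.52e-05), Aloxe3 (6.29 ± 0.55), Psat1 (5.21 ± 0.22), Gprc5a (4.94 ± 0.34) and Slc7a11 (4.70 ± 1.04, adjusted p = 0.00894). The call of Slc7a11 was lost without 2 h replicate 2 (4.50, adjusted p = 0.056). The 5 largest falls began with Sftpa1, a collectin first known from lung, which read 5.91 and 6.23 untreated, then 8.23 and 8.10 at 2 h and 5.14 and 5.82 at 6 h (-2.69 ± 0.20, adjusted p = 7.27e-05). G0s2, the inhibitor of the lipase ATGL, read 9.20 and 9.98 untreated, 10.70 and 10.60 by 2 h and 8.38 and 8.29 by 6 h (-2.31 ± 0.20). Pdp2, a phosphatase that activates pyruvate dehydrogenase, read 8.13 and 8.47, then 8.91 and 8.52, then 6.77 and 6.10 (-2.28 ± 0.21). These genes stood highest at 2 h and lowest at 6 h. Hykk, a kinase of hydroxylysine, fell by 1.91 ± 0.18 between the times, and B3galt1, a galactosyltransferase, by 2.20 ± 0.45, a call lost without 2 h replicate 2 (-1.75, adjusted p = 0.0572). Some early rises had receded: Acot1, a fatty acyl-CoA thioesterase, read 8.09 in both untreated arrays, 11.42 and 11.36 at 2 h, and 10.90 and 10.55 at 6 h. Lamb3, a laminin chain, read 5.92 and 6.23, then 9.06 and 9.29, then 7.77 and 8.28.

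The third comparison tested which of these responses differed between genotypes, by subtracting the wt response at 6 h from that of KO liver. At 6 h, several early genes and some neutrophil markers had risen less in KO liver, and a few genes that fell in wt liver had not fallen in KO liver. Of 17052 genes, 89 were called (0.522%), with 71 (0.416%) having a lower and 18 (0.106%) a higher response in KO than in wt. Of the 2816 genes that rose in wt liver, the KO response was called smaller for 57 and larger for 1. Of the 3762 that fell, it was called smaller for 11 and larger for 6. Over probe sets the calls numbered 108 (0.561%) with all arrays, and leaving out any 1 of the 8 arrays moved this count by over 1.5 times. It was 50 and 60 without untreated wt replicate 1 and 2, 65 and 56 without untreated KO replicate 1 and 2, and 71 and 69 without wt 6 h replicate 1 and KO 6 h replicate 2. It was 277 without wt 6 h replicate 2 and 310 without KO 6 h replicate 1. KO 6 h replicate 2 lay at 21.1 on the first principal component, apart from replicate 1 at 41.5. Untreated KO replicate 2 had a Pml level of 7.97, closer to the untreated wt arrays than the 7.10 of replicate 1. That level lay above the wt arrays at 2 h and 6 h, so the Pml probe set did not set this array apart from wt liver. Its label was kept.

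Fos read 4.35 and 3.93 in untreated wt liver and 10.12 and 9.02 at 6 h, and 3.98 and 3.67 against 5.61 and 5.0 in KO liver, a difference of responses of -3.95 ± 0.45 (adjusted p = 0.00639). At 2 h Fos had read 11.29 and 11.45 in KO liver and 9.47 and 9.74 in wt liver. Gprc5a read 5.02 and 5.01 in untreated KO liver and 6.26 and 5.69 at 6 h, so that its response was lower by 4.01 ± 0.48 than in wt (adjusted p = 0.00639). Cetn4, a centrin, read 4.64 and 4.85 untreated and 7.97 and 8.18 at 6 h in wt liver, and 4.48 and 4.42 against 4.64 and 4.26 in KO liver (-3.33 ± 0.23, adjusted p = 0.000465). In these 3 genes the untreated levels of both genotypes were close. The neutrophil gene S100a8 rose by 2.67 in wt liver and had a difference of 0.18 in KO liver (-2.50 ± 0.34, adjusted p = 0.00945). Its 2 h values were 6.49 and 6.90 in KO liver and 6.78 and 6.73 in wt liver. The glycolytic gene Pkm, at 1.57 in wt and 0.45 in KO liver, had a response lower by 1.12 ± 0.15 (adjusted p = 0.00767). Gadd45g and Myc differed in another way, since untreated KO liver already stood higher. Gadd45g read 8.59 and 9.63 in untreated KO liver and 8.74 and 8.09 at 6 h (-4.74 ± 0.48, adjusted p = 0.00348). Myc read 8.09 and 9.36 in untreated KO liver and 10.01 and 8.66 at 6 h (-3.97 ± 0.63, adjusted p = 0.0226). At 2 h Myc had read 10.62 and 10.75 in KO liver and 8.23 and 8.33 in wt liver. Genotype differences at 2 h were not tested. The call of Myc was lost without untreated wt replicate 1 (-3.69, adjusted p = 0.104), untreated wt replicate 2 (-4.24, 0.0529), untreated KO replicate 2 (-3.33, 0.0633) or wt 6 h replicate 1 (-3.82, 0.0988).

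Among genes that fell in wt liver, Atoh8, a factor of the hepcidin pathway, went from 8.36 and 8.25 to 7.07 and 7.09 in wt and from 8.0 and 8.05 to 8.28 and 8.63 in KO liver (1.66 ± 0.17, adjusted p = 0.00352). Dexi went from 9.19 and 9.36 to 7.13 and 7.50 in wt and from 9.21 and 9.37 to 8.80 and 8.84 in KO liver (1.49 ± 0.19, adjusted p = 0.00639). Cldn2, a tight junction claudin, fell in wt from 9.96 and 9.81 to 8.79 and 8.61 and stood at 10.18 and 10.15 in KO liver at 6 h (1.56 ± 0.21), a call lost without untreated wt replicate 1 (1.48, adjusted p = 0.0521). In KO liver the 6 h arrays of Atoh8 and Cldn2 lay above the untreated KO arrays, where in wt they lay below. Arrdc3, an alpha-arrestin, differed by 2.26 ± 0.33, with untreated KO arrays of 9.52 and 9.77 against 11.21 and 11.22 in wt. Its call was lost without untreated wt replicate 1 (2.27, adjusted p = 0.0721), untreated wt replicate 2 (2.26, 0.0605), untreated KO replicate 1 (2.14, 0.0704), wt 6 h replicate 1 (2.05, 0.063) or KO 6 h replicate 2 (2.03, 0.0548). Slc17a4, an anion transporter, differed by 1.73 ± 0.28, and its call was lost without untreated wt replicate 1 (1.63, adjusted p = 0.113), untreated wt replicate 2 (1.84, 0.0629), untreated KO replicate 1 (1.68, 0.0944), untreated KO replicate 2 (1.79, 0.084) or KO 6 h replicate 2 (1.61, 0.0876). For most of the 17052 genes no genotype difference was called, which does not show that the responses were alike: Sprr1a had a difference of 0.20 ± 0.66 and Psat1 of -0.19 ± 0.31.

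**Figure D5:**
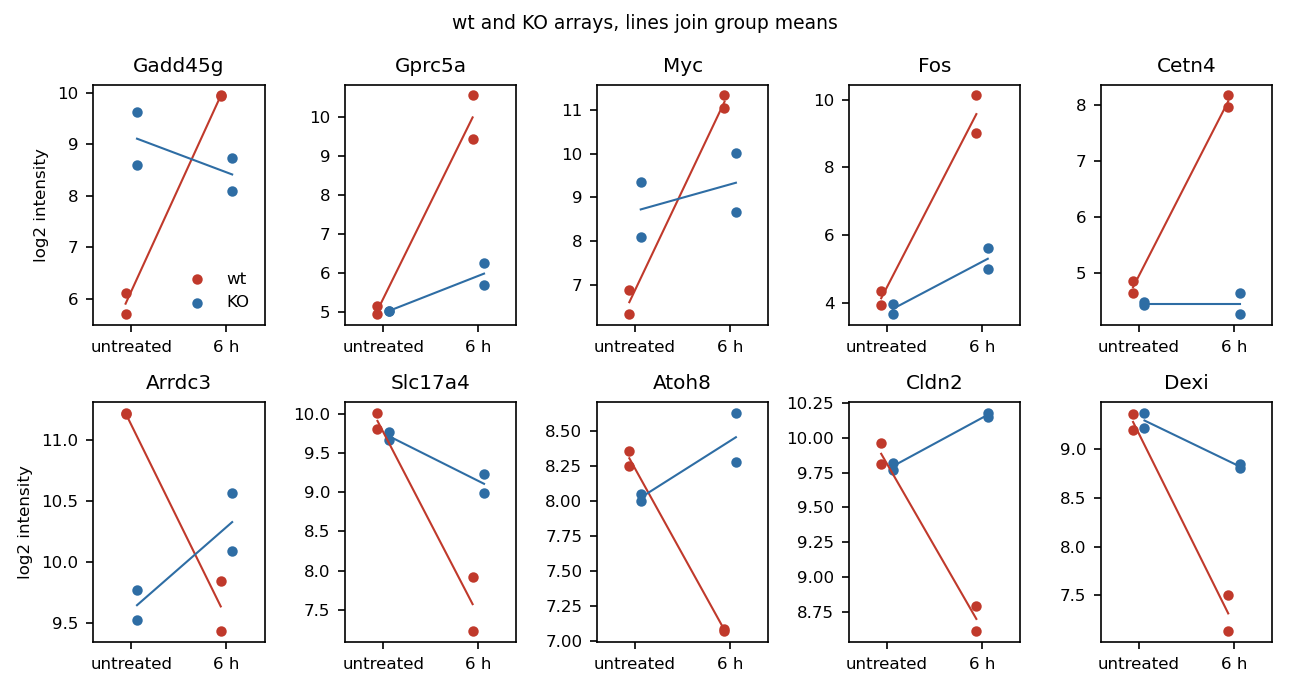
Log2 intensity of the 5 largest called differences in each direction between the KO and the wt response at 6 h, with 1 point per array, wt in red, KO in blue, and lines joining group means. The upper genes rose in wt liver and less or not in KO liver, the lower ones fell in wt liver, and Gadd45g, Myc and Arrdc3 differed between genotypes before treatment.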

How the data were processed

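Liver RNA of 12 samples was measured on Affymetrix Mouse Gene 1.1 ST arrays. The deposited table holds normalized intensity values on a linear scale, with array medians of 79.9 to 90.14. Per the submitters' processing notes, the authors used Affymetrix Expression Console with RMA, which corrects background, equalises array distributions and summarises probes, and so compresses differences of dim and very bright probe sets. Log2 was taken here without a pseudocount. The number of arrays limits the precision, and no detection calls were used. Groups came from the sample titles, and for 1 wt 2 h array from its source name.

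Of 35556 probe sets, 21218 carried 1 symbol of the platform annotation, 1881 several and 12457 none. Those with 1 symbol and a mean log2 of at least 5 (19236) entered a limma 3.58.1 fit under R 4.3.3 (lmFit, eBayes, 6 group means over 12 arrays, 6 residual and 4.21 prior degrees of freedom). P-values are two-sided and Benjamini-Hochberg adjusted within each comparison. The fit was tested on simulated data. A gene is its brightest probe set, and 1250 genes had several.

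The members, the 59 gene lists (1378 measured genes of 1556 listed) and the rules were chosen with earlier results of these data known. Named genes were Pml, the 15 largest called rises and falls without overlap between arrays (predicted genes, RIKEN clones and small RNAs counted only), up to 8 called members of a list by p and others where their role mattered, and the 5 largest called differences each way in the other comparisons. Listed genes without a tested probe set of their own, such as Hspa1a, Hspa1b, Ddit3 and Gdf15, were not analysed here. Alternatives were to drop the filter or raise it to 7, to normalize by quantiles, to add 16 before the log2, to average the probe sets of each gene, to let the variance follow the mean, to fit the 4 arrays alone, to block on the replicate number and to leave out each array.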

Additional observations from a re-analysis of the deposited data

Results flagged for a closer look

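Among the genes named or listed, 41 had a KO response at 6 h that differed from the wt response by limma's interaction test. Of these, 13 kept the call under each alternative tried and 28 lost it under at least 1 of them, mostly when an array was left out. Values are the KO response minus the wt response on the log2 scale.

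Those that kept the call were Cetn4 (-3.33), Gadd45g (-4.74), Fos (-3.95), Gprc5a (-4.01), Ier2 (-2.43), an early response gene, Igfbp1 (-3.13), a stress-induced binding protein of insulin-like growth factors, S100a8 (-2.50), Pkm (-1.12), Pck1 (-1.48), Herpud1 (-1.20), a degradation factor of the endoplasmic reticulum, Abcc4 (1.84), an efflux pump, Atoh8 (1.66) and Dexi (1.49). For Abcc4 the response was 0.28 in wt and 2.12 in KO liver. For Pck1 it was -0.16 in wt and -1.64 in KO liver, and for Igfbp1 2.19 in wt and -0.94 in KO liver.

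Among early and feedback genes, the call was lost under at least 1 alternative for Myc (-3.97), Egr2 (-2.0), Mxd1 (-1.93), Zfp36 (-2.36), Socs3 (-1.93), Pim3 (-2.40) and Klf15 (-1.24). Among neutrophil, adhesion and red cell genes this held for Cxcr2 (-3.22), S100a9 (-2.54), Trem1 (-2.37), Sele (-1.09) and Alas2 (-2.68). Among iron, metal and BMP genes it held for Hamp2 (-2.43), Hamp (1.28), Id1 (2.82), Id2 (1.22) and Mt1 (-0.91). Among metabolic, transport and protein quality genes it held for Nrg4 (-2.85), Pfkp (-1.84), Tat (-0.84), Clk1 (-1.18), Sftpa1 (-1.72), Derl3 (1.47), Slc1a4 (1.95), Psmd5 (0.80), Arrdc3 (2.26), Slc17a4 (1.73) and Cldn2 (1.56). Egr2, Sele, Trem1, Derl3 and Id2 lost it under 8 alternatives each.

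Between 2 h and 6 h in wt liver, 10 genes were singled out for the size of their called difference. Sprr1a (7.02), Aloxe3 (6.29), Psat1 (5.21), Gprc5a (4.94) and Slc7a11 (4.70) rose. Sftpa1 (-2.69), G0s2 (-2.31), Pdp2 (-2.28), B3galt1 (-2.20) and Hykk (-1.91) fell, and Slc7a11 and B3galt1 lost the call without wt 2 h replicate 2.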

How the results depend on the processing

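For wt liver at 6 h against untreated, 7301 of 19236 probe sets were called, and 4613 to 5876 when any 1 of the 4 arrays was left out, lowest without untreated replicate 2. The higher calls then ran from 2019 to 2580 (3152 with all arrays) and the lower calls from 2594 to 3423 (4149). Of the 4613, 4530 were among the 7301 in the same direction, and under the alternatives fitted per probe set (averaging per gene was not among them) no probe set was called in opposite directions. The other alternatives gave 5550 (mean log2 of at least 7, with fewer probe sets tested) to 7426 calls (quantile normalization). Against 2 h, leaving out an array gave 2696 to 3565 calls (5261 with all arrays), 1070 to 1588 higher (2089) and 1512 to 1977 lower (3172). For the KO response minus the wt response it gave 50 to 310 calls (108), 4 to 76 higher (18) and 46 to 239 lower (90). The labels do not say that a replicate number marks shared animals or batches. The replicate differences of pairs of groups correlated between -0.136 and 0.182 (-0.0866 for untreated wt with wt 6 h, 0.139 for wt 2 h with wt 6 h, 0.145 for untreated wt with untreated KO), so the numbers were not taken to pair samples. With the replicate number as a block the 3 comparisons gave 7277, 5281 and 102 calls, 3120, 2082 and 18 of them higher and 4157, 3199 and 84 lower. The 1 reversal was Actn1, 0.42 by its brightest probe set and -0.03 by the mean of its probe sets. Over 1403 results for listed and named genes at 6 h, 139 to 186 lost their call when an array was left out, and 67 in the fit of the 4 arrays alone. A mean log2 of at least 7 drops dim members by construction, so neutrophil markers called higher went from 13 to 2, collagens and matrix from 12 to 5 and chemokines from 13 to 6. Differences of dim genes shrank with 16 added before the log2, such as Fos (5.43 to 4.52) and Asns (3.97 to 3.24).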

Other observations

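Families of genes that share the letters of their symbol, with at least 20 tested members, were counted after the data were seen, so they are descriptions. Small nucleolar RNAs, which guide the modification of ribosomal RNA and are mostly processed from introns of host genes, stood higher at 6 h. Of 26 Snora genes 21 were called higher and none lower (median log2 difference 0.63), and of 30 Snord genes 20 were higher and none lower (median 0.50). DEAD-box helicases (Ddx) had 15 of 32 members higher and 2 lower (median 0.27), and receptors of the TNF family (Tnfrsf) 11 of 20 higher and 2 lower (median 0.41).

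Proteins of the mitochondrial ribosome stood lower, with 26 of 46 Mrpl genes called lower and 1 higher (median -0.36) and 11 of 28 Mrps genes lower and 1 higher (median -0.28). Aldehyde dehydrogenases (Aldh) had 11 of 20 members lower and 1 higher (median -0.54). The DnaJ proteins of the C class (Dnajc) had 12 of 25 lower and 3 higher (median -0.26). Olfactory receptor genes (Olfr) had 34 of 568 members called higher and 55 lower (15.7% called, against 38.6% of all genes), with a median of -0.01.

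Dimmer probe sets of a gene did not always share the sign of the brightest one. This was so for Actn1, Bak1, Col5a1, Hnrnpf, Hspb1, Loxl2, Pes1, Tra2a and Ube2l3.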
